A study of Emberiza bruniceps with 4 samples.

Results

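Spring and autumn were compared in hypothalami taken from red-headed buntings that had kept their gonads. The red-headed bunting, Emberiza bruniceps, is a migratory songbird. The comparison covers 2 of the 4 libraries of the series, Spring Intact and Autumn Intact, and describes every gene whose CPM averaged 1 or more across the 4 libraries, which is 10559 of 11943 protein names that had counts. CPM is a gene's count scaled to a common library total. There were no replicates: each season was represented by 1 library of wild-caught birds, the number of birds in a library is not given in the sources used here, and season and library cannot be told apart. The other 2 libraries, Spring Castrated and Autumn Castrated, came from birds without gonads and are used only to set a second season ratio beside the first.

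The hypothalamus links day length and energy state to reproduction. In birds, long days raise thyrotropin in the pars tuberalis, which leads the tanycytes and ependymal cells of the third ventricle to make more active thyroid hormone through the deiodinase DIO2, and gonadotropin-releasing hormone then drives the pituitary and gonads. Nearby lie neurons that control feeding and body weight, the myelinated tracts of the ventral brain, and the choroid plexus, a secretory epithelium of the ventricles that makes cerebrospinal fluid.

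The Spring Intact library held 7258655 and the Autumn Intact library 7122813 estimated counts on contigs matched to a collared flycatcher protein, which were 39.98% and 39.1% of all its estimated counts. Where a gene had 0 counts, up to 3 counts could have been missed, which is 0.411 CPM in the Spring Intact and 0.405 CPM in the Autumn Intact library. Hypothalamic markers were present in both: the homeobox gene NKX2-1 stood at 22.3 and 17.8 CPM and SIM1, a gene of the paraventricular nucleus, at 12.9 and 6.21 CPM, in the same order. Genes known from the telencephalon were also present in both libraries, with a sum of 6253 CPM in the Spring Intact and 6260 CPM in the Autumn Intact library over 28 members and a median log2 ratio of 0.01. Pituitary hormones were close to absent, since prolactin and growth hormone had 1 count each in spring and 0 in autumn.

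Most genes stood at similar levels in both seasons. The log2 ratio of spring over autumn, taken after adding 0.5 CPM to both, had a median of 0.03 and lay between -0.21 and 0.26 for the central 50% of genes, and 8139 genes (77.1%) were within 0.5 of 0. At least 2-fold apart were 739 genes, of which 275 (2.60% of those described) were higher and 464 (4.39%) lower in spring. On either side of 0, 54.2% of genes were above and 45.7% below. With 1 library a season a ratio carries no measure of the spread between birds, and the ranges in brackets below are exact 95% intervals for counting error only. That interval was wholly past 2-fold for 89 higher and 199 lower genes.

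The share of genes 2-fold apart went down with level. It was 19.8% of the 1589 genes with a mean of 1 to 5 CPM, 11.8% of 2386 genes at 5 to 20 CPM, 2.90% of 4177 genes at 20 to 100 CPM and 0.914% of 2407 genes at 100 CPM or more. In the highest class 9 genes were higher and 13 lower in spring. Chondroadherin, transthyretin and serotransferrin, all lower in spring, had the largest ratios there.

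**Figure D1:**
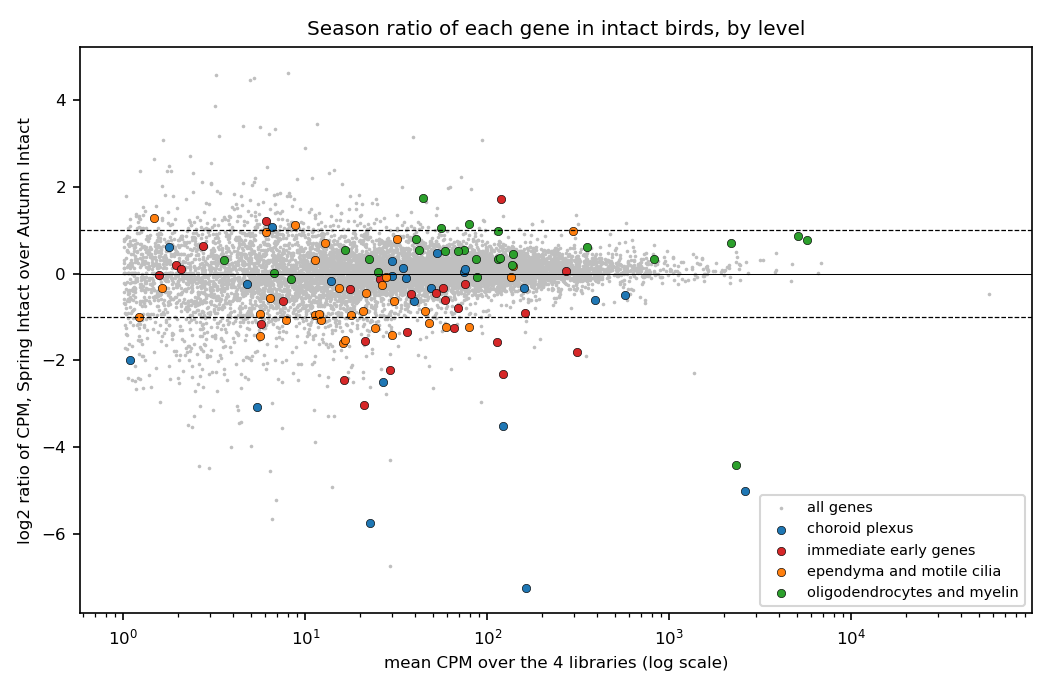
Log2 ratio of CPM, Spring Intact over Autumn Intact, against the mean CPM over the 4 libraries on a log axis, with 1 point per gene and 4 gene lists in colour; dashed lines mark 2-fold. Most points lie within 0.5 of 0, the choroid plexus genes reach down to -7.23 and most genes of oligodendrocytes and myelin sit just above 0.

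Several genes of the choroid plexus list were far lower in spring. They included 3 of the 10 genes whose interval lay farthest on the lower side: chondroadherin, transthyretin and the potassium channel KCNJ13. Transthyretin (TTR), which carries thyroid hormone and retinol in cerebrospinal fluid, had 1744 counts (239 CPM) in spring and 56449 (7622 CPM) in autumn, a log2 ratio of -4.99 (-5.07 to -4.93), or 31.8-fold lower in spring. Serotransferrin (TF) is the iron carrier made in brain by oligodendrocytes and the choroid plexus. It was counted in the oligodendrocyte and myelin list and not in this one. Its level was 354 CPM in spring and 7478 CPM in autumn, a ratio of -4.40 (-4.46 to -4.35). All 3 contigs of each gene that had at least 20 counts over the 2 libraries were more than 2-fold lower in spring. For TF, however, 1 contig held 99.8% of those counts, and the third TTR contig had only 77.2 counts. Chondroadherin (CHAD), a matrix protein that binds cells to collagen, had 24 counts in spring and 4196 in autumn and the lowest ratio of all genes, -7.23 (-8.07 to -6.85), on 1 contig.

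Other members of the choroid plexus list ran from far lower to higher in spring. Of its 23 measured members, 7 were at least 2-fold lower and 1 was higher in spring, beside 4.39% and 2.60% of all genes. The members of this and the other lists, CHAD among them, were chosen with earlier results of these data known. Counts over a list are therefore no independent support. Below 0 were 16 members and above 0 were 7, beside 45.7% and 54.2% of all genes, and the median was -0.33, beside 0.03 over all genes. The potassium channel KCNJ13 had 7 counts in spring and 571 in autumn (-5.73, -7.65 to -5.28), a lower ratio than that of TTR. The sulphate transporter SLC13A4 had 144 and 1703 counts (-3.51). Klotho (KL), a membrane protein that acts as a co-receptor for a fibroblast growth factor, stood at 13.2 and 76.2 CPM. The transcription factor LMX1A, which specifies the roof plate from which choroid plexus arises, had 1 count in the Spring Intact library against 36 in the Autumn Intact library, a log2 ratio of -3.07 (-10.49 to -2.58). KCNJ13, SLC13A4, KL and LMX1A were therefore lower in spring than in autumn in the intact pair. LMX1A also belongs to the hypothalamic regions list. Its 4.86 CPM in the Autumn Intact library was below its 7.59 CPM in Spring Castrated and 9.11 CPM in Autumn Castrated.

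Several well-known choroid plexus genes differed far less. The bicarbonate transporter SLC4A5 was at -0.63 (-0.88 to -0.40), carbonic anhydrase CA2 at -0.60 and the lysophospholipase ENPP2 at -0.50. The serotonin receptor HTR2C (0.10) and the water channel AQP1 (0.28) had intervals that held 0, and the prolactin receptor PRLR was at 0.46. The part of other cell types in the ratios of this list was not tested, for these genes or for those far lower in spring. Summed over the list, the level was 1411 CPM in spring and 9952 CPM in autumn, and without TTR it was 1172 and 2330 CPM. No member was at 0 in either library. From 1 library of bulk tissue, fewer cells of a type and less RNA per cell cannot be told apart.

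In the castrated pair the same genes differed less. TTR was at -1.12 (-1.16 to -1.07), with 805 CPM in the Spring Castrated and 1746 CPM in the Autumn Castrated library, and TF at -1.07. The contigs of TTR did not go the same way there. Its most abundant contig in the intact pair was at -3.18 in the castrated pair, the next at 0.55 and the last at -1.25. CHAD had 39.8 and 40.3 CPM and a ratio of -0.02. The median of the list was 0.10, and 2 of its members were 2-fold lower in the castrated pair, where 5.42% of all genes were lower and 2.51% higher by that much.

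**Figure D2:**
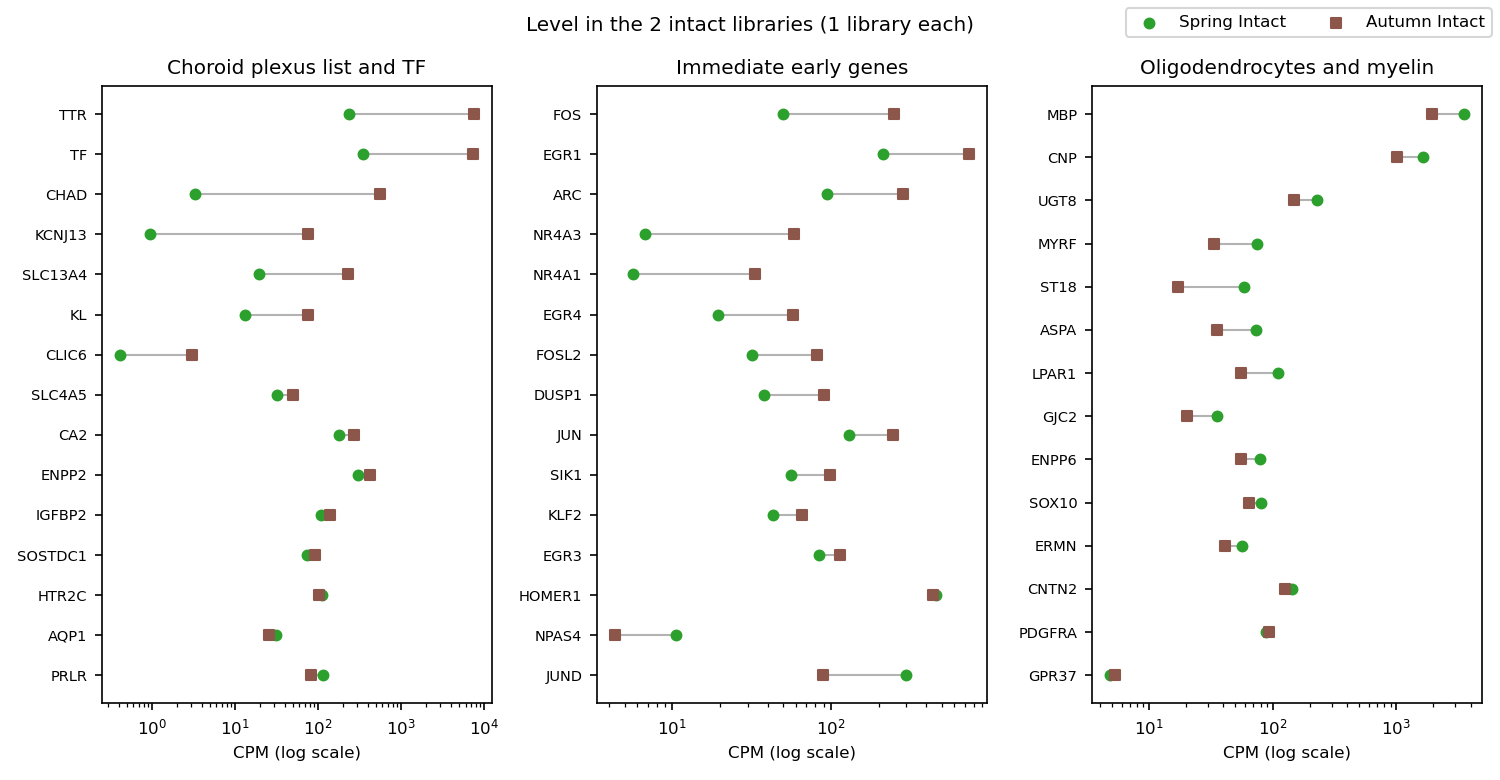
CPM on a log axis in the Spring Intact (green circles) and Autumn Intact (brown squares) libraries for members of 3 gene lists, with 1 library behind each point. TTR stands at 239 CPM in spring and 7622 CPM in autumn, FOS and EGR1 lie to the left in spring and JUND and NPAS4 to the right, and MBP and most other myelin genes lie to the right in spring.

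Genes of ependymal cells and their motile cilia were lower in spring as a group. Ependymal cells line the ventricles and move cerebrospinal fluid with beating cilia. Of 33 measured members, 11 were at least 2-fold lower and 2 higher in spring, beside 4.39% and 2.60% of all genes. Below 0 were 25 and above 0 were 8, beside 45.7% and 54.2% of all genes. The median was -0.86, the lowest of the 34 lists. FOXJ1, the transcription factor that switches on motile cilia, had 67 counts in spring and 213 in autumn and was at -1.60 (-2.07 to -1.25). The radial spoke gene RSPH1 was at -1.54, the axonemal dyneins DNAH9 and DNAH5 at -1.42 and -1.23 and the central pair gene HYDIN at -1.13.

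The cilia genes were not all on one side. RFX2, a transcription factor of ciliated cells, was higher in spring, with 142 counts against 64 and a ratio of 1.13 (0.73 to 1.62). The transport gene IFT172 was at 0.97 (0.87 to 1.07), and TEKT2 was at 1.28 on 10 counts in spring and 2 in autumn. RFX3 and AK8 were both at -0.07. The choroid plexus is itself a ciliated epithelium, and the part of its genes in the cilia ratios was not tested. In the castrated birds the cilia list had a median of -0.13, with 3 members at least 2-fold higher and 0 lower. In that pair 2.51% of all genes were higher and 5.42% lower by that much.

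Tanycyte and astrocyte genes were close to level on balance, with a median of -0.04 over 19 members. At least 2-fold higher were 0 and lower 3, beside 2.60% and 4.39% of all genes. SPARCL1, a matrix protein of astrocytes, was at -1.01 (-1.37 to -0.71). The glutamate transporters SLC1A2 and SLC1A3 were at 0.10 and -0.06, vimentin (VIM) at -0.02 and glutamine synthetase (GLUL) at 0.06. The third member past 2-fold was the transporter SLC7A10, on 2 counts in spring and 10 in autumn.

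Myelin genes were higher in spring, mostly by less than 2-fold. Of 27 measured members of the oligodendrocyte and myelin list, 24 were above 0 and 3 below, beside 54.2% and 45.7% of all genes. At least 2-fold higher were 3 and lower 1, beside 2.60% and 4.39% of all genes. The median of 0.52 was the highest of the lists. Myelin basic protein (MBP), which compacts the sheath, had 3557 CPM in the Spring Intact and 1966 CPM in the Autumn Intact library, a log2 ratio of 0.86 (0.83 to 0.88). CNP, an enzyme of the sheath's inner tongue, was at 0.70, and UGT8, which makes the sheath lipid galactosylceramide, at 0.62.

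The genes past 2-fold were regulators and an enzyme of mature oligodendrocytes. ST18, a zinc-finger factor, had 425 counts in spring and 126 in autumn and was at 1.75 (1.48 to 2.07). MYRF, the transcription factor needed for myelination, was at 1.14 (0.93 to 1.37) and aspartoacylase (ASPA) at 1.05 (0.84 to 1.28). With the authors' TPM in place of counts ASPA was at -0.028, and its 5 contigs ran from -0.44 to 2.79. Genes of oligodendrocyte precursors differed less: PDGFRA was at -0.09, with an interval that held 0, and CSPG4 at 0.55. TF was the 1 member that was 2-fold lower, and without it the list summed to 10983 CPM in spring and 6613 CPM in autumn. The castrated pair had a myelin median of 0.09, and 15 members were above 0 in both pairs, as were 29.1% of all genes.

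Immediate early genes, which neurons and other cells switch on within minutes of stimulation, were lower in spring. Of 27 measured members, 10 were at least 2-fold lower and 2 higher, beside 4.39% and 2.60% of all genes. Below 0 were 21 and above 0 were 6, beside 45.7% and 54.2% of all genes, and the median was -0.60. FOS had 365 counts in spring and 1862 in autumn, a log2 ratio of -2.32 (-2.50 to -2.17). EGR1 stood at 213 and 747 CPM and ARC, a synaptic gene induced by activity, at 94.7 and 285 CPM. The orphan receptors NR4A3 (-3.03) and NR4A1 (-2.46) had the lowest ratios, and every one of their 3 contigs each was at least 2-fold lower in spring.

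A second tier was lower by less than FOS. EGR4 was at -1.55, FOSL2 at -1.35, the phosphatase DUSP1 at -1.24 and JUN at -0.92. EGR3 (-0.44) and KLF6 (-0.23) were short of 2-fold, and HOMER1 (0.07) and EGR2 (-0.04) had intervals that held 0. NPAS4, an activity-dependent factor found only in neurons, went the other way, with 77 counts in spring and 32 in autumn (1.20, 0.68 to 1.93). JUND was at 1.72 (1.60 to 1.86) as a sum of contigs, but only 2 of its 5 contigs were on that side, they ran from -3.91 to 8.89, and with the authors' TPM the gene was at -0.27. The castrated pair had a median of -0.16 for this list, and 15 members were below 0 in both pairs, as were 24.5% of all genes.

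**Figure D3:**
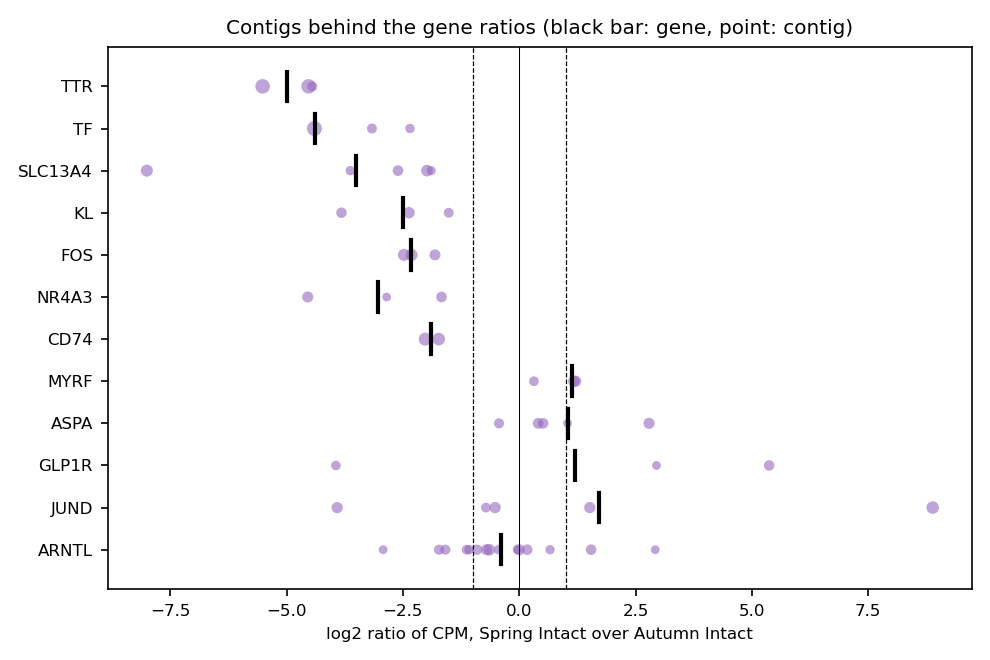
Log2 ratio of CPM, Spring Intact over Autumn Intact, of each contig with at least 20 counts (points, larger with more counts) behind 12 genes, with the gene's own ratio as a black bar; dashed lines mark 2-fold. The contigs of TTR, TF, SLC13A4, KL, FOS, NR4A3 and CD74 all lie on the lower side, while those of GLP1R, JUND and ARNTL lie on both sides of 0.

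Genes of antigen presentation were among the immune genes lower in spring. Of 24 measured interferon and antigen presentation genes, 7 were at least 2-fold lower and 0 higher, beside 4.39% and 2.60% of all genes. Below 0 were 17 and above 0 were 7, beside 45.7% and 54.2% of all genes, and the median was -0.48. CD74, the invariant chain of class II molecules, had 1021 counts (140 CPM) in spring and 3882 (524 CPM) in autumn, a ratio of -1.90 (-2.01 to -1.81). CIITA, the factor that switches on class II genes, was at -1.80 (-3.68 to -1.06) on 7 and 34 counts. Beta-2-microglobulin (B2M), the light chain of class I molecules, stood at 93.0 and 239 CPM, and IFI30, a reductase of antigen processing, was at -2.15. Interferon regulatory factors IRF1 (-1.07, -1.47 to -0.74) and IRF7 (-1.06, on 8 and 21 counts) and NLRC5 (-1.02) were also 2-fold lower. Other genes of the interferon response lay on both sides of 0. DDX58 was at -0.66 (-0.98 to -0.37), TRIM25 at -0.56, RSAD2 at -0.07, IFIH1 at 0.34 and EIF2AK2 at 0.48.

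The 25 microglia and macrophage genes had a median of -0.39, with 19 below 0, beside 45.7% of all genes. The 2 members at least 2-fold lower, beside 4.39% of all genes, were CD74 and CYBB, an oxidase subunit with 4 counts in spring and 15 in autumn, and 0 were higher. The receptor CSF1R, which keeps microglia alive, was at -0.66 (-0.87 to -0.46), with 44.1 CPM in spring and 70.1 CPM in autumn. The transcription factor SPI1 was at -0.70 and the leukocyte phosphatase PTPRC at -0.67. P2RY12 and GPR34, receptors of resting microglia, were above 0, at 0.44 and 0.41, and the complement genes C1QA and C1QC were at 0.00 and -0.05. Summed over the list the level was 546 CPM in spring and 972 CPM in autumn, and CD74 belongs to both immune lists. The part of these cells in the antigen presentation ratios was not tested. In the castrated pair the microglia median was 0.14. Of the antigen presentation genes named above, CD74 was at 0.63 and CIITA at 0.02 there, while B2M was at -0.96 and IFI30 at -1.59.

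Genes of the cell cycle were also lower in spring on balance, at low counts. Of 24 measured members, 5 were at least 2-fold lower and 1 higher, beside 4.39% and 2.60% of all genes, and the median was -0.48. Genes of low level were 2-fold lower more often than all genes. At a mean of 1 to 5 CPM 211 of 1589 genes were, and at 5 to 20 CPM 169 of 2386. The 5 lower members had means within these ranges. Cyclin A2 (CCNA2) had 12 counts in spring and 82 in autumn, a ratio of -2.43 (-3.76 to -1.87), and the checkpoint kinase gene BUB1B had 72 and 234. PCNA, a clamp of DNA replication and repair, was at 0.21, and CDT1, a licensing factor, was the member 2-fold higher, on 33 and 14 counts. The castrated pair gave a median of 0.19.

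**Figure D4:**
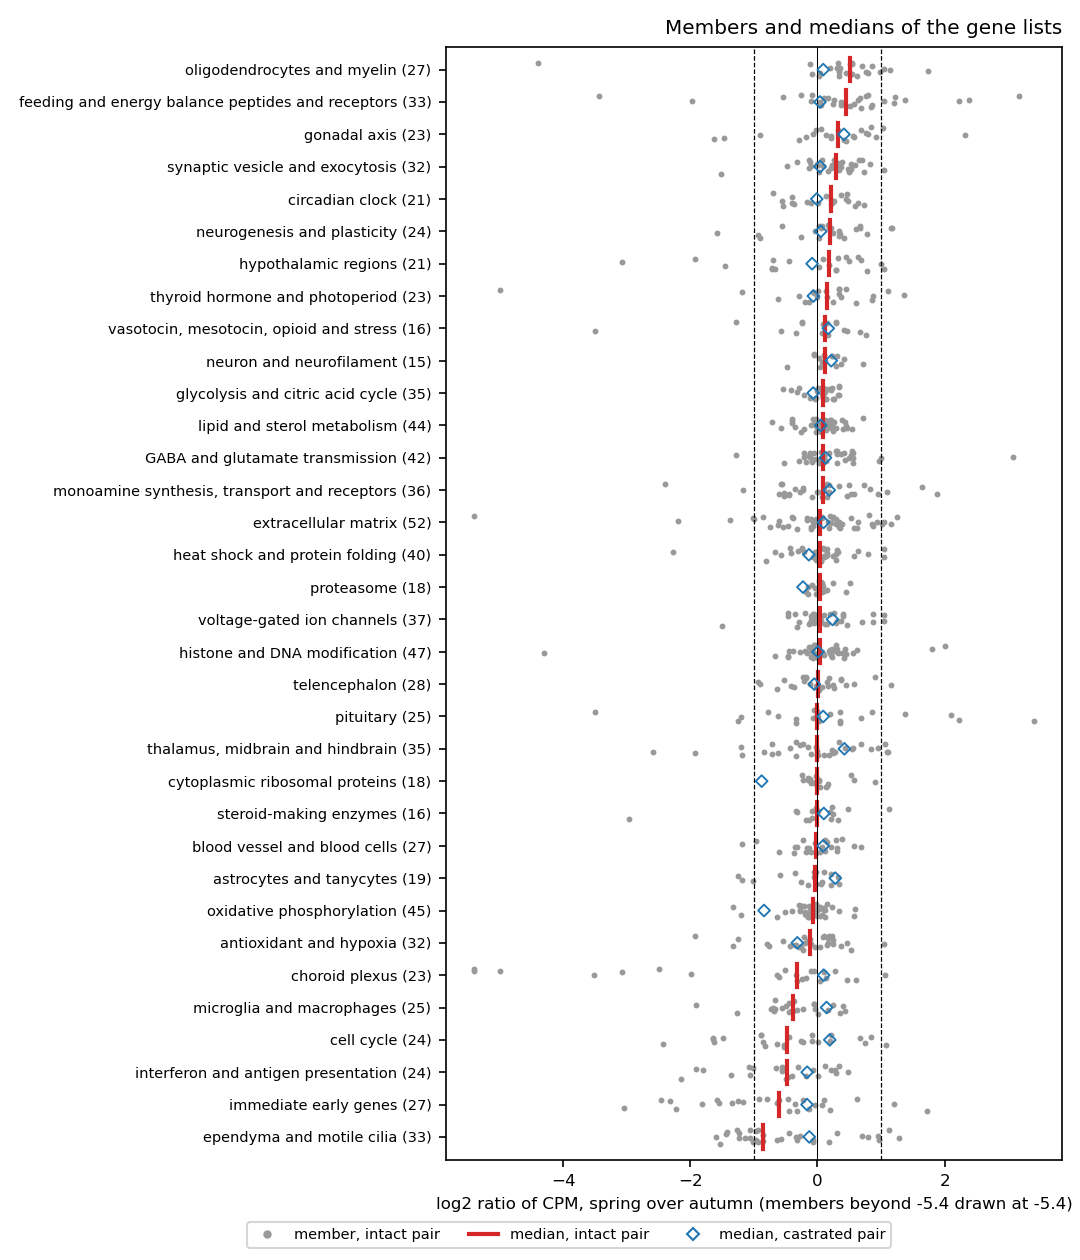
Log2 ratio of CPM, spring over autumn, of the members of each gene list (grey points, intact pair), with the median in the intact pair (red bar) and in the castrated pair (open diamond); the number of measured members is in brackets and dashed lines mark 2-fold. In the intact pair the medians run from -0.86 for ependyma and motile cilia to 0.52 for oligodendrocytes and myelin.

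Sex steroid receptors and other genes of the gonadal axis were mostly higher in spring. Of 23 measured members of the gonadal axis list, 16 were above 0 and 7 below, beside 54.2% and 45.7% of all genes. At least 2-fold higher were 2 and lower 2, beside 2.60% and 4.39% of all genes, and the median was 0.32. TAC1, the precursor of substance P and neurokinin A, had 290 counts in spring and 56 in autumn, a ratio of 2.32 (1.98 to 2.83) on 1 contig. The progesterone receptor PGR had 146 and 71 counts (1.02, 0.64 to 1.49), and the oestrogen receptors ESR1 and ESR2 were at 0.92 and 0.84. Aromatase (CYP19A1), which turns androgen into oestrogen, differed less, with 33.7 CPM in spring and 26.9 CPM in autumn (0.32, 0.05 to 0.60).

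GNRH1 encodes gonadotropin-releasing hormone and was lower in spring at a low count, with 11 counts in spring and 42 in autumn, a ratio of -1.62 (-3.02 to -0.93). The prostaglandin synthase PTGS2 was at -1.46 on 32 and 96 counts, and TACR1, the receptor for substance P, at -0.90. Receptors TACR3 (0.57) and ERBB4 (0.77) and the neuronal nitric oxide synthase NOS1 (0.68) were above 0. Above 0 in both pairs were 16 members, and 1 was below 0 in both, beside 29.1% and 24.5% of all genes. The castrated pair had a median of 0.42. GNRH1 was on the other side there, at 2.07, with 17 counts in spring and 2 in autumn.

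Steroid-making enzymes, 16 of them measured, had a median of -0.01. SRD5A2, a 5-alpha reductase, was at 1.13 (0.66 to 1.75). CYP11A1, which starts steroid synthesis from cholesterol, was at -2.97 (-4.87 to -2.40) on 7 counts in spring and 81 in autumn, and had 73 and 39 counts in the Spring Castrated and Autumn Castrated libraries.

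The thyroid hormone and photoperiod list held genes on both sides. Over its 23 measured members the median was 0.14, with 2 at least 2-fold higher and 2 lower, beside 2.60% and 4.39% of all genes. The median was 0.24 when each member with 0 counts took its ratio against 3 counts or, where that gave none, was left out. DIO2, the enzyme that makes active thyroid hormone, had 14.3 CPM in spring and 33.1 CPM in autumn, a ratio of -1.19 (-1.56 to -0.88). The tanycyte and astrocyte list, to which DIO2 also belongs, had a median of -0.04. TTR was the other thyroid member that was 2-fold lower. In the castrated pair DIO2 was on the other side, at 0.88 (0.62 to 1.18), while TTR was at -1.12 as a sum of contigs that went both ways. The transporter SLCO1C1 (-0.13), the receptor THRA (0.14), the corepressor NCOR1 (0.24) and the thyrotropin receptor TSHR (0.34) were all within 0.5 of 0.

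Light and melatonin receptors had low counts. The melatonin receptor MTNR1A had 47 counts in spring and 20 in autumn (1.12, 0.47 to 2.09), and MTNR1B had 112 and 140. The opsin OPN3 had 41 and 14 counts (1.36, 0.67 to 2.56). OPN5 and melanopsin (OPN4), photoreceptors known from the deep brain of birds, had 20 and 12 counts and 21 and 10 counts, with intervals that held 0. All of these receptors were below 0 in the castrated pair. MTNR1A was at -0.59, MTNR1B at -0.15, OPN3 at -0.79, OPN5 at -1.02 and OPN4 at -1.08 there, and only the intervals of OPN3 and OPN4 left out 0. Thyrotropin (TSHB) had 0 counts in both intact libraries, which at this depth does not show that it was absent.

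Clock genes were not 2-fold apart in any of the 21 measured cases, and their median was 0.21. The lowest ratio was that of BHLHE40, a repressor, at -0.71 (-0.97 to -0.46) on 204 counts in spring and 340 in autumn. The activators ARNTL (BMAL1) and NPAS2 and the repressors NFIL3 and CRY1 were also a little lower in spring. ARNTL was at -0.39, with 15 contigs from -2.93 to 2.92, NPAS2 at -0.41, NFIL3 at -0.56 and CRY1 at -0.54 (-0.63 to -0.45), with 230 CPM in spring and 334 CPM in autumn. The nuclear receptors NR1D1 and NR1D2, which repress ARNTL, were higher, at 0.73 (0.44 to 1.06) and 0.64 (0.53 to 0.75), as were TEF (0.46) and PER3 (0.47, interval holding 0). CLOCK was at 0.21 and PER2 at -0.10. The time of day at which the birds were sampled is not given in the sources used here. Above 0 in both pairs were 4 clock genes, and 3 were below 0 in both, beside 29.1% and 24.5% of all genes.

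Feeding and energy balance genes were mostly higher in spring. Of 33 measured members, 27 were above 0 and 6 below, beside 54.2% and 45.7% of all genes. At least 2-fold higher were 7 and lower 2, beside 2.60% and 4.39% of all genes, and the median was 0.45. AGRP, the appetite-raising partner of NPY in the arcuate nucleus, was lower, with 31 counts in spring and 134 in autumn (-1.97, -2.70 to -1.52), while NPY itself was at -0.27, with 117 and 141 CPM. The receptor NPY1R was at -0.55. POMC, the precursor of the appetite-lowering melanocortins, had 18 counts in spring and 1 in autumn (2.22, 1.53 to 9.57), and CARTPT, which is made in the same cells, was at 0.79 (0.37 to 1.30). POMC is also a pituitary gene and had 624 and 1980 counts in the Spring Castrated and Autumn Castrated libraries.

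Several other peptides of the same list, though not all, were higher in spring. Galanin (GAL) had 277 counts in spring and 119 in autumn (1.21, 0.92 to 1.56) and growth hormone-releasing hormone (GHRH) had 361 and 175 (1.05, 0.80 to 1.33). The ghrelin receptor GHSR was at 1.38 (0.81 to 2.27), and both of its contigs were at least 2-fold higher in spring. Orexin (HCRT, 0.76), somatostatin (SST, 0.68) and neurotensin (NTS, 0.51) were higher by less than 2-fold. GLP1R, at 1.20, rested on 3 contigs from -3.94 to 5.37, and its most abundant contig, chosen over the 4 libraries, gave -4.30.

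A few small peptide genes had wide ratios on few counts. QRFP, an appetite-raising peptide, had 47 counts in spring and 2 in autumn (3.17, 2.64 to 7.66), neuromedin B (NMB) had 72 and 11, and neuromedin U (NMU) had 5 and 91 (-3.43, -5.82 to -2.89). Each was at least 2-fold apart the other way in the castrated pair. CRH (0.16), cholecystokinin (CCK, 0.11) and melanin-concentrating hormone (PMCH, -0.09) had intervals that held 0. Across the list 14 of 33 members were above 0 in both pairs, beside 29.1% of all genes, and the median of the castrated pair was 0.04.

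**Figure D5:**
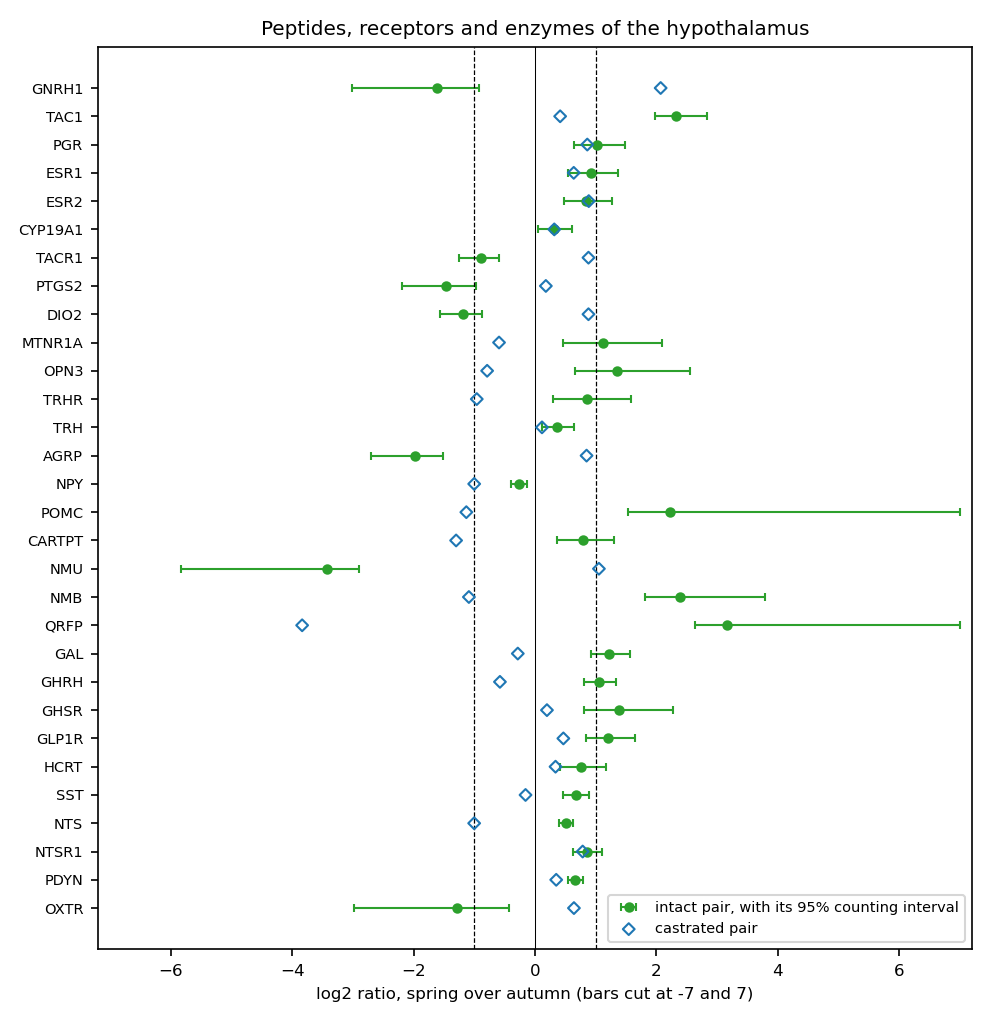
Log2 ratio of CPM, spring over autumn, of peptide, receptor and enzyme genes in the intact pair (green, with the exact 95% interval for counting error) and in the castrated pair (open diamonds); dashed lines mark 2-fold. AGRP at -1.97 and DIO2 at -1.19 lie on the lower side and TAC1 at 2.32 and GAL at 1.21 on the higher side in the intact pair.

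Opioid, vasotocin and stress genes were close to level as a group, with a median of 0.12 over 16 members. At least 2-fold lower were 2 of them, beside 4.39% of all genes. Prodynorphin (PDYN) had 183 CPM in the Spring Intact and 116 CPM in the Autumn Intact library (0.66, 0.54 to 0.79), and the nociceptin receptor OPRL1 was at 0.76. Proenkephalin (PENK) stood at 739 and 667 CPM. The receptor for the hormone known in birds as mesotocin, OXTR, had 8 and 25 counts. CRHR1, a receptor for corticotropin-releasing hormone, had 0 counts in spring and 38 in autumn. Set against 3 counts it was 12.5-fold lower in spring, and the nearest limit of its interval was a log2 ratio of -3.27.

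Monoamine genes were level as a group, with a median of 0.08 over 36 members. At least 2-fold higher were 3 and lower 2, beside 2.60% and 4.39% of all genes. Tyrosine hydroxylase (TH), the first enzyme of dopamine synthesis, had 69 counts in spring and 31 in autumn (1.09, 0.54 to 1.84), and the decarboxylase DDC, which takes part in making dopamine and serotonin, had 213 and 67 (1.64, 1.29 to 2.11). The histamine receptor HRH1 had 35 and 7 counts. The serotonin receptors HTR2B (-2.39) and HTR4 (-1.17) were lower on fewer than 60 counts a library.

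Synaptic vesicle genes stood slightly higher in spring, and other neuronal lists were closer to level. The 32 synaptic vesicle and exocytosis genes had a median of 0.29, with 24 above 0 and 8 below, beside 54.2% and 45.7% of all genes. Their sum was 11912 CPM in spring and 9760 CPM in autumn. At least 2-fold apart were 1 higher and 1 lower member, beside 2.60% and 4.39% of all genes. The lower one was amphiphysin (AMPH), an endocytosis protein, at -1.51 (-2.30 to -1.003) on 28 counts in spring and 88 in autumn. RIMS1, a scaffold of the release site, was at 0.66 (0.54 to 0.78), RAB3B at 0.73 and the fusion ATPase NSF at 0.49. Of 15 neuron and neurofilament genes 12 were above 0, beside 54.2% of all genes. Their median was 0.11, beside 0.03 over all genes, and the neurofilament NEFM was below 0, at -0.48. CAMK2A, a kinase of excitatory synapses, had 623 CPM in spring and 281 CPM in autumn (1.15, 1.08 to 1.23). GABA and glutamate genes had a median of 0.08 over 42 members, with the vesicular glutamate transporter SLC17A6 at 0.57. GABRG3 had 27 counts in spring and 0 in autumn, or 9.13-fold higher against 3 counts, with an interval from a log2 ratio of 2.79 upward.

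Markers of brain regions were close to level by their medians, with members on both sides. The medians were 0.01 for telencephalon, 0.00 for thalamus, midbrain and hindbrain (0.10 with genes at 0 set against 3 counts) and 0.19 for hypothalamic regions (0.14 so set). Single transcription factor genes did differ. LMX1B, of the midbrain and hindbrain, had 13 counts in spring and 98 in autumn (-2.59, -3.85 to -2.05), and GATA2 and GATA3 were at -1.21 and -1.19. In the hypothalamic list BARHL1 had 2 and 18 counts and SIM1 was at 0.995 (0.53 to 1.59). Also lower there, with an interval that left out 0, were LMX1A (-3.07), NR5A2 (-1.45), FOXB1 (-0.71) and LHX5 (-0.70). Higher in the same way were GHRH (1.05), FEZF1 (0.78), TBX3 (0.49) and MEIS1 (0.28). The pituitary factor POU1F1 had 35 counts in spring and 0 in autumn, or 11.8-fold higher against 3 counts, with an interval from 3.19 upward. The pituitary hormone genes PRL, GH1, TSHB, CGA and FSHB had 2 counts or fewer in each intact library. They had more in the castrated ones. In the Spring Castrated and Autumn Castrated libraries PRL had 481 and 826 counts and GH1 385 and 1872. There CGA had 3637 and 328 counts, FSHB 1035 and 6 and TSHB 7 and 35.

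Housekeeping groups were nearly level between the seasons. Ribosomal protein genes (18 members) had a median of -0.00 with 0 past 2-fold, the proteasome 0.04, glycolysis and citric acid cycle 0.08, lipid and sterol metabolism 0.08, heat shock and folding 0.05 and oxidative phosphorylation -0.07. In the last list COX7C (-1.21) and ATP5D (-1.34, on 6 and 21 counts) were the 2 members past 2-fold. The desaturase SCD was at 0.54 and the small chaperone CRYAB at 1.04 (0.79 to 1.33). DDIT4, an inhibitor of mTOR signalling induced by stress, had 147 counts in spring and 381 in autumn (-1.33), and CA9, a hypoxia-induced carbonic anhydrase, had 33 and 138 (-1.93). The castrated pair differed here, with medians of -0.88 for ribosomal proteins and -0.84 for oxidative phosphorylation.

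Matrix and chromatin lists had medians of 0.05 and 0.04, with a few members far from 0. Mimecan (OGN), a small proteoglycan of the meninges and other connective tissue, had 256 counts in spring and 1204 in autumn (-2.20, -2.41 to -2.02), and collagen XIV (COL14A1) was at -1.38. The chromatin remodeller CHD7 had 14 and 349 counts (-4.30, -5.51 to -3.85), on 2 contigs that were both at least 2-fold lower. TRIM28, a corepressor also named transcription intermediary factor 1-beta, was at 2.001 (1.74 to 2.35), with all 3 of its contigs at least 2-fold higher, and the demethylase KDM5B was at 1.80.

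Outside the lists, genes with wide ratios on the lower side included a receptor, a transporter and genes with 0 counts in spring. The oncostatin-M receptor (oncostatin-M-specific receptor subunit beta) had 218 counts in spring and 1741 in autumn (-2.96, -3.19 to -2.77), and solute carrier family 13 member 1, a sulphate transporter, had 6 and 293. All 4 contigs of that transporter and all 3 of the receptor were at least 2-fold lower. Dynein heavy chain 5, axonemal-like, had 162 and 1031 counts. SAFB-like transcription modulator, calcium/calmodulin-dependent protein kinase type IV and retinaldehyde-binding protein 1 had 0 counts in spring against 389, 182 and 79 in autumn. Each rested on 1 contig. Set against 3 counts they were 128-fold, 59.8-fold and 25.96-fold lower. The nearest limits of their intervals were log2 ratios of -6.69, -5.59 and -4.37.

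On the higher side the leading genes rested on fewer counts. Structural maintenance of chromosomes protein 4 had 711 counts in spring and 83 in autumn (3.06, 2.79 to 3.47), with both contigs at least 2-fold higher. Ribonuclease 3, early endosome antigen 1, E3 ubiquitin-protein ligase MIB1 and protein TANC2 had 86, 83, 79 and 49 counts in spring and 0 in autumn. Each rested on 1 contig. Set against 3 counts they were 29.1-fold, 28.1-fold, 26.7-fold and 16.6-fold higher. The nearest limits of their intervals were log2 ratios of 4.53, 4.48, 4.41 and 3.70. Collagen alpha-1(VII) chain was at 1.998 with 1 of its 3 contigs at least 2-fold the other way. By CPM, which is not corrected for length, wide gains in level beside that of MBP were in microtubule-associated proteins 1A (0.48) and 2 (0.31).

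The contigs behind a gene did not always go the same way. Of the 275 higher genes, 86 had at least 2 contigs with 20 or more counts, and in 58 of these all contigs were on the gene's side, in 18 all by at least 2-fold. Of the 464 lower genes, 180 had at least 2 such contigs, with 126 and 53 by the same measures. A contig at least 2-fold the other way was found in 13 higher and 33 lower genes. Genes called on 1 such contig or none numbered 189 on the higher and 284 on the lower side.

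The season ratios of these genes were set beside those of the castrated pair. Of the 275 genes higher in spring in intact birds, 106 (38.5%) were also above 0 in the castrated pair, 26 at least 2-fold the same way and 37 at least 2-fold the opposite way. Of the 464 lower genes, 253 (54.5%) were also below 0, 67 at least 2-fold the same way and 37 the opposite way, beside 5.42% of all genes 2-fold lower and 2.51% higher in the castrated pair. Over all genes 46.3% lay on opposite sides of 0 in the 2 pairs. Among the genes whose contigs were all at least 2-fold on the gene's side, 7 of 18 higher and 31 of 53 lower genes were on the same side in the castrated pair. The 67 genes at least 2-fold lower in both pairs included NR4A3, NR4A1, FOSL2 and DDIT4. These were at -1.11, -1.10, -1.06 and -1.46 in the castrated pair. TTR, TF, IFI30 and SAFB-like transcription modulator were also among the 67, at -1.12, -1.07, -1.59 and -4.21 there. The 2 pairs share no library, and the difference between them was not tested.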

How the data were processed

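The series holds 4 hypothalamic RNA libraries, and each season was sampled once in intact and once in castrated birds; the labels gave the groups. Trimmomatic and kallisto were used, per the submitters' processing notes; the assembler, the protein search and every setting were not given in the sources used here. The authors deposited, per contig, estimated counts (fractional, because kallisto divides a read among contigs it fits, and not normalized). They also deposited TPM, a length-corrected share that their tool computed from them. Dividing reads can shift counts from one contig to a near-identical one and leave a gene known from 1 contig at 0. Another table that the authors deposited held matches of contigs to collared flycatcher proteins with a percent identity, a bit score and an e-value as a score of chance.

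Of 507906 contigs listed, 52300 were matched at e-values up to 1e-05, keeping the top bit score. Estimated counts were summed by protein name, rounded, and scaled to CPM with TMM factors (1.01 in spring and 1.04 in autumn for intact birds, 1.03 and 0.925 for castrated ones; trims of 30% of ratios and 5% of levels). A log2 ratio used CPM with 0.5 added. With 1 library per group no test was made; 2-fold was a rule of size. Intervals are exact binomial (Clopper-Pearson) at 95%, from counts and scaled totals, with nothing added. The labels mention no molecular identifiers, so reads were not taken as independent molecules, and intervals and the floor of 3 counts cover counting error only. A fold against 3 counts takes the other library's count as exact, and the limit of the interval can be a smaller fold. A contig was counted with at least 20 counts over the intact libraries.

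The files give protein names. Of 1338 symbols in 34 lists, 989 were assigned by hand to a protein name spelled as in the files, and 925 of these passed the level filter; a list needed 3 measured members. The comparison, members and lists were chosen with earlier results of these data known. Genes named are the 10 in each direction with the farthest interval bound, the largest ratio at 50 or more counts in both libraries and the largest CPM difference, up to 5 members of a list whose interval left out 0, all members of the gonadal, thyroid, clock and feeding lists, and up to 5 in each direction shared with or opposite to the castrated pair; other list members were picked with their values in view, and not all selected genes are printed; some are not reported here. The functions were tested on simulated data with known ratios. Python 3 packages numpy, pandas, scipy and matplotlib were used.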

Additional observations from a re-analysis of the deposited data

Results flagged for a closer look

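Among the 285 genes selected by the naming rules, 21 were at least 2-fold apart between seasons in opposite directions in the intact and the castrated pair, and 28 in the same direction. Some were selected for being opposite, so this count is partly set by the choice. Over all 10559 genes, 37 of the 275 higher and 37 of the 464 lower genes were 2-fold the opposite way. The difference was not tested, since each library stands alone. Peptide and neural genes among them were, as log2 ratios of spring over autumn in the intact pair and then the castrated pair, QRFP at 3.17 and -3.83, neuromedin B at 2.38 and -1.09, POMC at 2.22 and -1.13, GNRH1 at -1.62 and 2.07 and neuromedin U at -3.43 and 1.05. POMC is also a pituitary gene. Prolactin had 481 and 826 counts in the Spring Castrated and Autumn Castrated libraries and 1 and 0 in the intact ones. The part of pituitary RNA in the POMC ratios was not tested. The receptor subunit GABRG3 was at 3.07 and -1.97, the serotonin receptor HTR4 at -1.17 and 1.03 and the potassium channel KCNJ6 at -1.501 and 1.25. CHD7 was at -4.30 and 1.55, CYP11A1 at -2.97 and 1.33 and COL6A3 at 1.24 and -1.36.

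The other genes higher in the spring intact library and lower in the spring castrated one were early endosome antigen 1 (4.57 and -1.99), spindle assembly abnormal protein 6 homolog (3.43 and -1.96), endonuclease III-like protein 1 (3.33 and -2.03), helicase ARIP4 (3.13 and -1.93), mannose-1-phosphate guanyltransferase beta (2.63 and -2.91) and receptor of activated protein C kinase 1 (2.19 and -2.03). The reverse held for IQGAP3 (-3.54 and 2.28), MKL/myocardin-like protein 1 (-3.53 and 3.26), WNK2-like kinase (-3.14 and 2.29) and phosphomannomutase 2 (-2.09 and 1.69). Where a gene had 0 counts in a library the fitted ratio depends on the 0.5 CPM added and is no bound.

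Ratios of at least 2-fold were also found among contigs without a kept protein match, which the comparison leaves out. Of 56203 such contigs with a mean of at least 1 CPM, scaled to their own total, 6299 were at least 2-fold higher and 6622 at least 2-fold lower in the spring intact library, or 22.99%. Of 30305 single matched contigs, 30.1% were 2-fold apart.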

How the results depend on the processing

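Of 275 higher and 464 lower genes, a mean of at least 5 CPM left 172 and 253, and 2 CPM added before the log left 150 and 284. The authors' TPM gave 657 and 932, and the most abundant contig per gene 759 and 915. The other alternatives (median-of-ratios factors, library totals, no level filter, 0.1 CPM added, stricter matches and thinned libraries) stayed within 1.5 times of both counts. The 34 list medians kept their sign where at least 0.25 in size, and 1 of 340 moved by that much or more: ependyma and motile cilia, to -0.60 with 2 CPM added. Ratios of named genes left their counting interval, by a move of at least 0.05, in 44 of 282 cases with TPM, 57 of 282 with the most abundant contig, 40 of 285 with 2 CPM added and 6 of 274 with stricter matches. Of those at least 2-fold apart a further 3 changed sign: JUND (-0.27) and ASPA (-0.028) with TPM, and GLP1R (-4.30) with the most abundant contig. Leaving out a replicate could not be done with 1 library per group. No paired analysis was possible because each group has 1 library and the labels number no replicates. Depth limits genes under 20 CPM, where most of the 2-fold differences lie.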
